A study of Mus musculus with 3 samples.

Results

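Id1, Id2, Id3, Msx1 and Msx2 are classical target genes of bone morphogenetic protein (BMP) signalling, and they were taken by name from a table of 14133 genes in mouse fetal germ cells. All 5 rows were present. Fetal ovaries of C57BL/6 mice were taken at embryonic day 12.5 (E12.5), 14.5 (E14.5) or 16.5 (E16.5), and cells positive for Oct4-EGFP, which reports on the pluripotency gene Pou5f1, were sorted. The labels call them female primordial germ cells. RNA was captured in droplets with a 10x Genomics kit for 3′ ends, in which a unique molecular identifier (UMI) marks each captured molecule. Each stage was a single library without a replicate, so stage and library cannot be told apart and no test between stages was possible. The number of animals behind a library is not stated in the labels.

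BMP ligands bind pairs of type I and type II receptors, which phosphorylate SMAD1, SMAD5 and SMAD9; these join SMAD4 and switch on target genes in the nucleus. The ID proteins are small helix-loop-helix proteins without a DNA-binding basic region, and they hold back the E proteins by pairing with them. MSX1 and MSX2 are homeodomain proteins that mostly repress transcription. In the fetal mouse ovary, BMP signals act together with retinoic acid as germ cells leave mitosis and enter meiosis, and Msx1 and Msx2 have been linked to that entry.

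Germ-cell-like cells numbered 4678 at E12.5, 8903 at E14.5 and 5312 at E16.5, and the values below refer to them unless another type is named. They held 125161525, 102506950 and 68980723 UMIs in that order of stages. A further 213 cells were pregranulosa-like, that is, they carried markers of the somatic supporting cells of the ovary. In the library labelled E12.5 and female, 666 of the 4678 cells (14.2%) held a UMI of a Y-linked gene, and no cell did so at E14.5 or E16.5. Stage levels are given with those cells, and the values of E12.5 without them follow beside the comparisons. Libraries shared 43 to 72 cell barcodes in pairs. Levels are counts per 1000000 UMIs (CPM) of summed UMIs, with exact Poisson 95% intervals that cover counting error only.

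The genes lie on 5 chromosomes of GRCm38. Id1 spans chr2:152736251-152737410 on the plus strand, Id2 chr12:25093799-25097140 on the minus strand and Id3 chr4:136143497-136145755 on the plus strand. Msx1 spans chr5:37820485-37824583 and Msx2 chr13:53466884-53473074, both on the minus strand. No other gene of the GENCODE annotation overlapped any of them. Of their 50-base stretches of transcript, none of Id1, Id3 or Msx1 recurred in transcripts of another gene, against 0.33% of those of Id2 and 0.43% of those of Msx2. Msx1 had the highest rise between neighbouring stages of the 5, so the 250 bases before its RefSeq start are shown (GRCm38, chr5:37824586-37824835, minus strand, 5′ to 3′). Capitals mark CCAAT, read on either strand.

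Msx1: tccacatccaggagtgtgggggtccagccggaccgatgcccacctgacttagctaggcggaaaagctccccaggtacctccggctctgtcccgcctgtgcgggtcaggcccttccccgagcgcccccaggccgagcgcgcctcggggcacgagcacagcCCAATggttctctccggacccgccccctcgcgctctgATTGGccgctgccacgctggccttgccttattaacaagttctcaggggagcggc

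This window was 68.0% G and C, against a mean of 53.2% over 32851 RefSeq windows of the same length. It held CCAAT at 2 places, and 33.8% of all windows held that motif at least once on either strand. The letters GGCGCC and GTCTG, which occur in SMAD binding sites, were not in it, and stood in 9.59% and 42.2% of all windows. The windows given for Id2, Id3 and Msx2 overlap exons of GENCODE transcripts and are not printed. All 3 lie within the spans given above for their genes, because GENCODE starts those genes further upstream. In these windows GGCGCC occurred once for Id2, GTCTG at 2 places for Id3, and neither for Msx2.

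The 5 genes did not share a time course. Msx1 was high at E14.5 alone, Id1 was higher at each later stage, and Id2, Id3 and Msx2 were highest at E12.5. Msx1 stood at 10.7 CPM (10.1 to 11.3) at E12.5, 106.5 CPM (104.5 to 108.5) at E14.5 and 14.6 CPM (13.7 to 15.6) at E16.5. Id1 stood at 123.2 CPM (121.2 to 125.1), 269.3 CPM (266.1 to 272.5) and 394.6 CPM (389.9 to 399.3) at the same stages. Msx2, the other MSX gene, stood at 65.3 CPM (63.9 to 66.7), 38.5 CPM (37.3 to 39.7) and 4.78 CPM (4.28 to 5.33), which was lower at each later stage. Id3 stood at 593.4 CPM (589.1 to 597.7), 571.7 CPM (567.1 to 576.3) and 219.2 CPM (215.7 to 222.7). Id2 stood at 77.1 CPM (75.6 to 78.6), 64.3 CPM (62.8 to 65.9) and 34.4 CPM (33.0 to 35.8). No 2 stages of a gene had overlapping intervals, but the spread between replicate libraries is unknown.

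**Figure D1:**
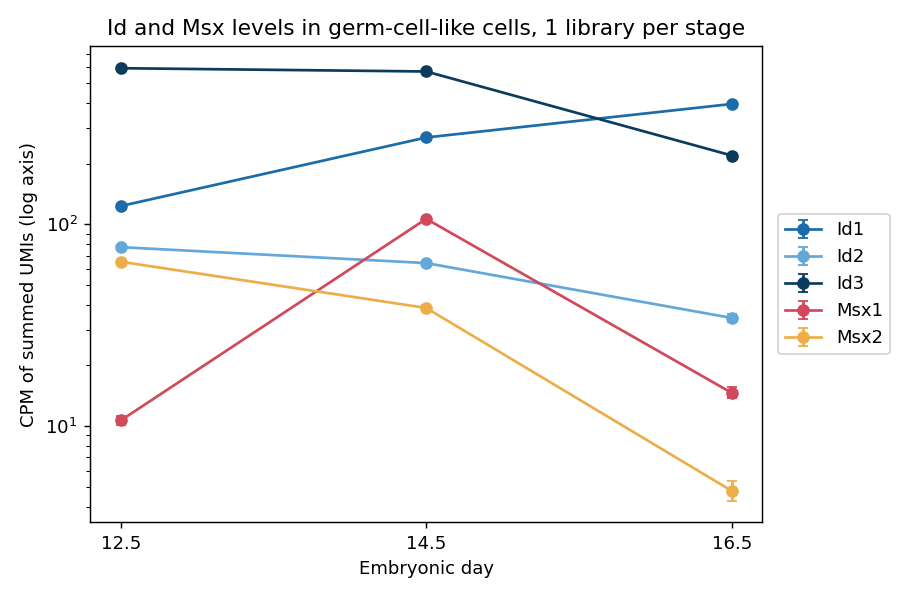
Level of each gene (CPM of summed UMIs, log axis) against embryonic day in germ-cell-like cells, 1 library per stage; bars are exact Poisson 95% intervals and are mostly smaller than the points. Msx1 peaks at E14.5 at 106.5 CPM, Id1 is higher at each later stage, and Id2, Id3 and Msx2 are lower at each later stage.

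Between E14.5 and E12.5, Msx1 was 9.97-fold higher (counting interval 9.42 to 10.6) and Id1 2.19-fold higher (2.14 to 2.23). Of the 14132 genes with at least 10 UMIs over the 3 stages, 31.2% were 2-fold or more higher at E14.5, and 16.3% were lower by that much. Set against these shares, 2 of the 5 members passed 2-fold upward and 0 downward. Msx2 was 1.70-fold lower at E14.5 (1.63 to 1.76), Id2 1.20-fold lower and Id3 1.04-fold lower. The median log2 ratio of all genes was 0.30 in CPM. With median-of-ratios scaling, which brings that median to -0.03, the log2 ratios were 2.99 for Msx1, 0.80 for Id1 and -1.09 for Msx2. Id1 then missed 2-fold and Msx2 passed it downward. Without the E12.5 cells that held Y-linked UMIs, Id1 was 1.91-fold higher and Msx1 8.94-fold higher at E14.5, and Msx2 was 1.92-fold, Id2 1.35-fold and Id3 1.12-fold lower.

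Between E16.5 and E14.5, 3 of the 5 members passed 2-fold downward and 0 upward. Over all genes, 17.4% passed it downward and 16.3% upward. Msx2 was 8.05-fold lower (7.20 to 9.04), Msx1 7.28-fold lower (6.82 to 7.77) and Id3 2.61-fold lower (2.56 to 2.65). Id2 was 1.87-fold lower. Id1 went the other way and was 1.47-fold higher at E16.5 (1.44 to 1.49). With upper-quartile scaling Id2 passed 2-fold as well, at a log2 ratio of -1.01.

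Between E16.5 and E12.5, 1 member passed 2-fold upward and 3 downward, where 37.0% of all genes did so upward and 22.7% downward. Id1 was 3.20-fold higher (3.14 to 3.27). Msx2 was 13.7-fold lower (12.2 to 15.3), Id3 2.71-fold lower and Id2 2.24-fold lower. Msx1 was 1.37-fold higher (1.26 to 1.49), a log2 ratio of 0.45, which turned to -0.01 as a difference of mean natural logs. The median log2 ratio of all genes was 0.39 here, and with median-of-ratios scaling that of Msx1 was 0.08. No rise of Msx1 between these stages is therefore read from the CPM. Without the cells with Y-linked UMIs, Id1 was 2.80-fold and Msx1 1.23-fold higher, and Msx2 was 15.4-fold, Id3 2.92-fold and Id2 2.52-fold lower. These 3 comparisons share their libraries in pairs and are not independent.

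The levels were carried by different numbers of cells. Depth differed between stages, with medians of 26710.5, 11002 and 12632 UMIs per cell in time order, so each cell was thinned to 5000 UMIs. This left out 0, 11 and 25 cells that were shallower. In thinned cells a UMI of Msx1 was found in 5.37% of cells at E12.5, 32.9% at E14.5 and 5.13% at E16.5. For Id1 the shares were 40.8%, 55.8% and 60.6%, for Id2 29.1%, 23.8% and 13.3%, and for Msx2 27.8%, 14.8% and 2.099%. Id3 was found in 90.4%, 72.9% and 41.6% of thinned cells. Before thinning, Msx1 was found in 21.5%, 51.2% and 11.6% of cells, and Id3 in 99.7%, 82.3% and 60.6%. Without the cells with Y-linked UMIs, the E12.5 shares in thinned cells were 45.9% for Id1, 32.3% for Id2, 92.7% for Id3, 5.96% for Msx1 and 31.1% for Msx2. The shares of Id1, Id2, Id3 and Msx2 kept the order of their CPM. For Msx1 the order of E16.5 and E12.5 was the reverse of that in CPM, with overlapping intervals (4.55 to 5.75% at E16.5 and 4.74 to 6.05% at E12.5), so no order is read from them.

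**Figure D2:**
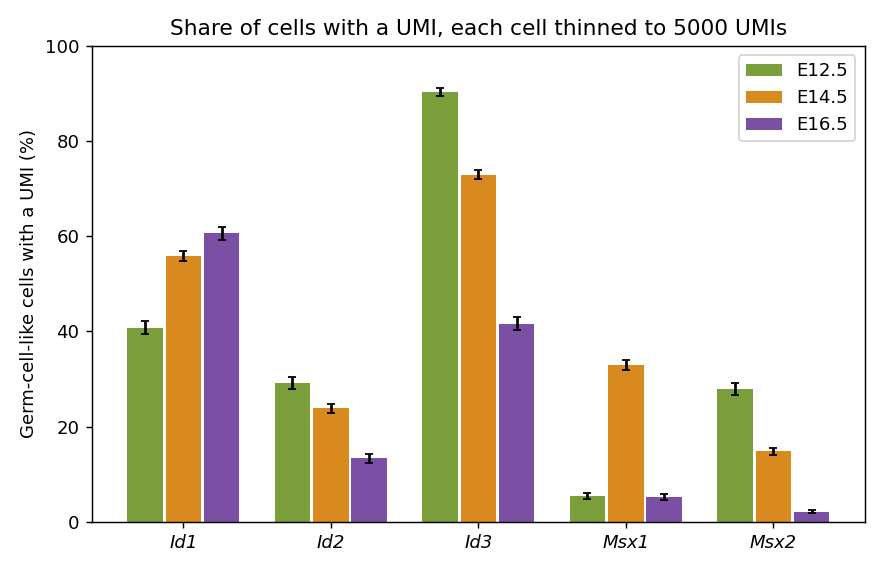
Percent of germ-cell-like cells with at least 1 UMI of each gene after every cell was thinned to 5000 UMIs, by stage; bars start at 0 and lines are exact binomial 95% intervals. Msx1 is found in 32.9% of E14.5 cells and in about 5% of cells at the other stages, and Id3 is found in 90.4% of E12.5 cells and 41.6% of E16.5 cells.

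The counts of Id1 and Id3 also varied more, relative to their means, at the later stages. In thinned cells the variance of the Id1 count over its mean was 1.42 at E12.5, 2.36 at E14.5 and 4.24 at E16.5. For Id3 this ratio was 1.498, 3.17 and 3.19. Counts that vary by sampling alone give a ratio near 1, but so can any gene with few counts. Msx2 stood at 1.09, 1.17 and 1.03, with mean thinned counts of 0.341, 0.174 and 0.022 UMIs. Its evenness between cells thus cannot be read from this ratio. The ratio can also rise with the mean count, which for Id1 was 0.628, 1.33 and 1.94 UMIs. Without the cells with Y-linked UMIs, the E12.5 ratios were 1.34 for Id1, 1.41 for Id3 and 1.05 for Msx2. A single E16.5 cell held up to 77 UMIs of Id1. The median cell had 182.1 CPM of Id1 at E16.5, against 178.1 CPM at E14.5. A cell in 10 had more than 1008 CPM at E16.5, against 673.4 CPM at E14.5. The 25th percentile was 72.0 CPM at E16.5 against 0 at E14.5, and the 75th was 497.1 against 388.1 CPM. The medians thus hardly differed between these stages, whereas both sides of the distribution did. Cells held a mean of 5.12 Id1 UMIs at E16.5 and 3.10 at E14.5, so these percentiles move in coarse steps.

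As a measure of RNA from other cells, the members were set beside genes of the pregranulosa cells. The pregranulosa-like cells are not a clean somatic reference. Over all 213 of them, Pou5f1 stood at 64.9 CPM and the meiotic genes Stra8 and Rec8 at 204.6 and 72.5 CPM. In the 166 pregranulosa-like cells of E14.5, with a median of 8491.5 UMIs, Id1 stood at 878.0 CPM, Id2 at 380.4 CPM and Id3 at 1187 CPM, above the germ-cell-like cells of that stage. Msx1 and Msx2 stood at 56.0 and 16.5 CPM there, below the germ-cell-like cells. Wnt6, a signalling gene of the somatic ovary, stood at 729.1 CPM in pregranulosa-like and 1.08 CPM in germ-cell-like cells at E14.5, so the germ-cell-like level was 0.15% of the somatic one. For Wt1, a somatic transcription factor gene, this figure was 0.094%, and for the BMP and activin antagonist gene Fst 0.11%. For the members it was 16.9% (Id2), 30.7% (Id1), 48.2% (Id3), 190.2% (Msx1) and 232.9% (Msx2). A UMI of Wnt6 was found in 0.574% of thinned E14.5 germ-cell-like cells, against 14.8% or more for each member. The whole list of 15 measured pregranulosa markers summed to 23.7, 30.7 and 14.0 CPM in germ-cell-like cells in time order. Krt18, a keratin gene, was its only member above 10 CPM, at E12.5 and E14.5. Among the 15 markers at E14.5 the gap was smallest for Krt18 and the BMP ligand gene Bmp2. Krt18 stood at 13.3 CPM in germ-cell-like and 152.9 CPM in all pregranulosa-like cells, and Bmp2 at 3.29 and 55.2 CPM. The part of RNA from other cells in the members' levels was not tested. In the 22 pregranulosa-like cells of E16.5, Id1 stood at 267.9 CPM, below the germ-cell-like cells of that stage.

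Inside E12.5 the members split with the Y-linked UMIs. In the 666 cells with such a UMI, Id1 stood at 23.6 CPM (21.5 to 25.9), against 140.9 CPM (138.7 to 143.2) in the 4012 cells without, which was 5.96-fold lower (5.43 to 6.56). Msx2 was 4.20-fold lower (17.6 against 73.8 CPM), Id2 3.61-fold (24.0 against 86.5 CPM), Msx1 3.17-fold (3.75 against 11.9 CPM) and Id3 1.90-fold (336.3 against 639.2 CPM). All 5 members were thus lower in the cells with Y-linked UMIs. Of 20 germ cell marker genes, 18 were within 2-fold between these cells, with Ddx4, an RNA helicase gene, at 126.6 against 122.3 CPM and Dazl, a translation regulator gene, at 453.8 against 455.5 CPM. The exceptions were Stra8, at 0.687 against 3.75 CPM, and Tdrd1, at 2.27 against 1.09 CPM. Median depths were 28433.5 and 26432.5 UMIs. Most of these cells fell into 1 cluster of 631 cells, formed without the 5 members among its variable genes and led by Y-linked genes together with Lefty1 and Lefty2, among others. In that cluster 91.4% of cells held a Y-linked UMI and Id1 stood at 10.99 CPM. These cells share 1 library, so the contrast has no replicate.

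To follow the members as cells advanced within a stage, cells were ranked by a score from other genes. The score was the mean natural log value of 13 late meiotic genes such as Sycp3, Prdm9 and Spo11, minus that of 10 early genes such as Pou5f1, Nanog and Dppa3. Each stage was cut into 5 bins of equal size, which are ranges of a score and not cell types. Of the cells, 63.5% at E12.5, 20.1% at E14.5 and 43.4% at E16.5 lay within 0.05 of a border, so neighbouring bins at E12.5 hardly differ.

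At E14.5 all 5 members were lowest in the most advanced bin. Msx1 stood at 99.9, 161.0, 158.0, 70.5 and 14.6 CPM from the first bin to the fifth, which made the fifth bin 11.05-fold lower than the second. Id1 went through 233.5, 341.3, 400.8, 264.4 and 60.5 CPM, with its peak in bin 3. Id3 followed the same shape, at 540.9, 682.0, 820.5, 581.7 and 134.0 CPM. Msx2 had no such rise and stood at 57.8, 58.8, 39.5, 16.3 and 4.36 CPM, and Id2 at 76.4, 80.6, 83.6, 49.9 and 14.4 CPM. Stra8, the gatekeeper of meiotic entry, and the meiotic cohesin gene Rec8 are not in the score. Rec8 was highest in bin 2, at 294.3 CPM, and Stra8 in bin 3, at 1933 CPM. Msx1 had overlapping intervals in bins 2 and 3 (155.8 to 166.3 and 152.6 to 163.6 CPM), as did Id2, so their peaks cannot be placed in 1 bin. Median depth was 8778.5 UMIs in the fifth bin against 13528 in the first, and the summed pregranulosa markers stood at 14.3 against 42.8 CPM. Their part in the fall of the members was not tested.

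At E16.5 each member was highest in the least advanced bin, and the MSX genes dropped most between the first bin and the second. Msx1 stood at 40.9 CPM there and between 6.47 and 7.72 CPM in the other 4 bins. Msx2 stood at 11.6 CPM there and between 2.16 and 4.23 CPM in the others. The first bin was wide, with scores from -0.95 to 0.95, against 0.95 to 1.13 in the second. At E16.5, 94 cells fell into a cluster made up mostly of E14.5 cells, with 160.7 CPM of Msx1 and 43.4 CPM of Msx2. Another 52 cells fell into a second such cluster, with 68.3 and 41.5 CPM. The part of these cells in the drop was not tested. The Id genes fell bin by bin, Id1 through 644.1, 569.7, 374.0, 224.9 and 122.8 CPM and Id3 through 460.5, 280.1, 168.8, 101.8 and 53.5 CPM. Id2 fell likewise, to 10.8 CPM in the last bin against 61.0 CPM in the first. Median depths lay between 11993 and 13551.5 UMIs over these bins.

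At E12.5 the gradients were shallow. Id1 stood at 150.1 CPM in the fifth bin against 103.4 CPM in the first, a 1.45-fold difference, and Id3 at 624.9 against 568.7 CPM. The cells with Y-linked UMIs were 9.30% of the fifth bin and 15.3% of the first. Without them Id1 still differed, at 164.4 against 118.0 CPM, and Id2 at 96.1 against 77.3 CPM. Msx2 had no such gradient, at 71.1 against 77.5 CPM without those cells and 65.8 against 68.1 CPM with them.

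**Figure D3:**
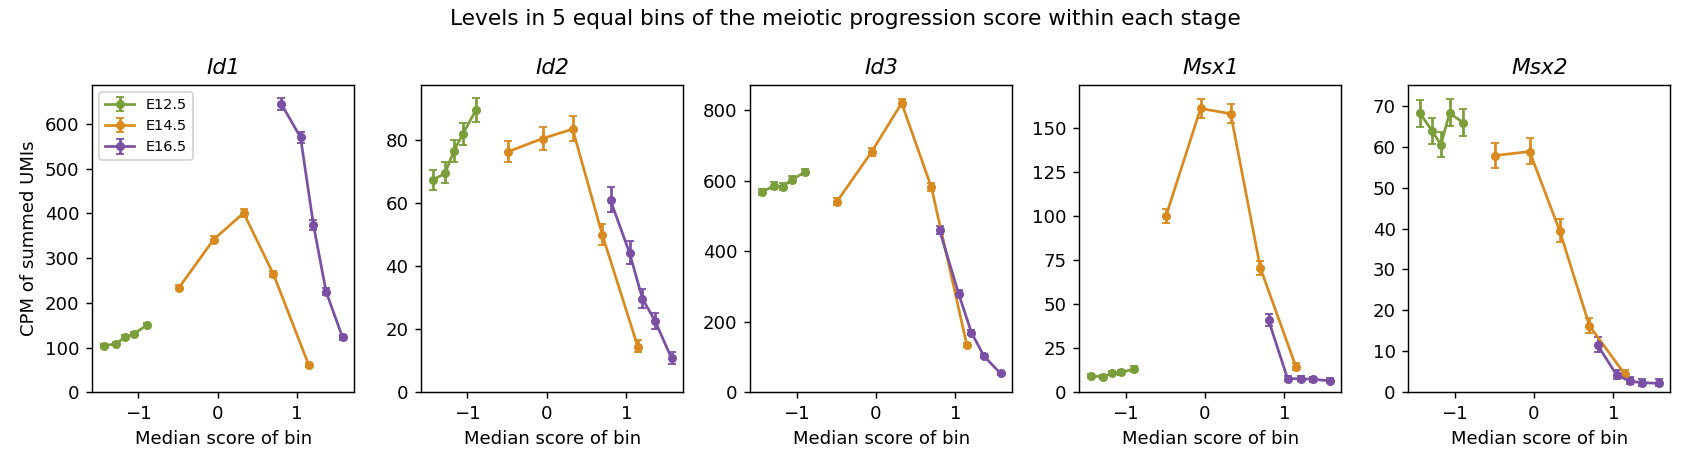
Level of each gene (CPM of summed UMIs) in 5 bins of equal cell number against the median meiotic progression score of the bin, coloured by stage; lines are exact Poisson 95% intervals. At E14.5 Id1, Id3 and Msx1 rise and then fall, to 60.5, 134.0 and 14.6 CPM in the last bin, and at E16.5 Id1 starts again at 644.1 CPM.

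E16.5 and E14.5 overlap in score, so cells of equal score could be compared, a step chosen after the bins were seen. Equal score did not mean equal cluster, since over these windows clusters 7 and 8 held 31.1% and 65.6% of the E16.5 cells, whereas cluster 6 held 82.2% of the E14.5 cells. In the 5 windows of 0.25 score units with at least 100 cells of each stage, Id1 was higher at E16.5 throughout, by 2.23-fold to 8.17-fold. Between scores 1 and 1.25 it stood at 459.9 CPM (450.8 to 469.2) in 1643 E16.5 cells, against 59.8 CPM (54.4 to 65.6) in 827 E14.5 cells. Id3 in that window stood at 215.4 CPM at E16.5, against 123.2 CPM at E14.5, although its stage level was 2.61-fold lower at E16.5. Between scores 0.5 and 0.75 Id3 was the other way round, at 514.6 CPM at E16.5 against 660.9 CPM at E14.5. Msx1 was lower at E16.5 in the first 3 windows, by 1.82-fold to 2.56-fold, and stood at 6.86 against 8.22 CPM and 6.70 against 5.04 CPM in the last 2, where intervals overlapped. In each window the E16.5 cells were deeper, by medians of 12048.5 to 13461 against 8337 to 10249.5 UMIs.

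Clusters formed without the 5 members set these levels apart further. At E14.5, the cluster led by Synpr, Rec8, Ccnd1 and Stra8, among others (2831 cells) had the highest Msx1, at 174.8 CPM, and among germ-cell-like clusters the highest Id1 and Id3, at 406.9 and 831.4 CPM. Msx1 itself ranked among the 10 genes that set this cluster apart, although it had no part in forming it. The cluster led by Cdh15 and Tbata (2368 cells) had 111.9 CPM of Msx1 and the highest Msx2 of the stage, at 60.4 CPM. The cluster led by Tppp and Fgf11 (3425 cells) had 36.9 CPM of Msx1 and 7.79 CPM of Msx2. At E16.5 the 2 main clusters differed most in Id1, which stood at 537.9 CPM in the one led by Gm27164 and Myom3, among others (3349 cells) and at 129.4 CPM in the one led by Rad21l and Pcdh17 (1666 cells). Msx1 ran the other way there, at 7.50 and 13.4 CPM. A small group of 94 E16.5 cells that fell into the Rec8 cluster had 160.7 CPM of Msx1, close to the 174.8 CPM of its E14.5 cells. Another 52 E16.5 cells fell into the Cdh15 cluster and had 68.3 CPM of Msx1. The Msx1 level of the whole E16.5 stage, 14.6 CPM, was above that of both main clusters. Every gene of these cells but the 5 members could shape the clusters, so the differences are descriptions.

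**Figure D4:**
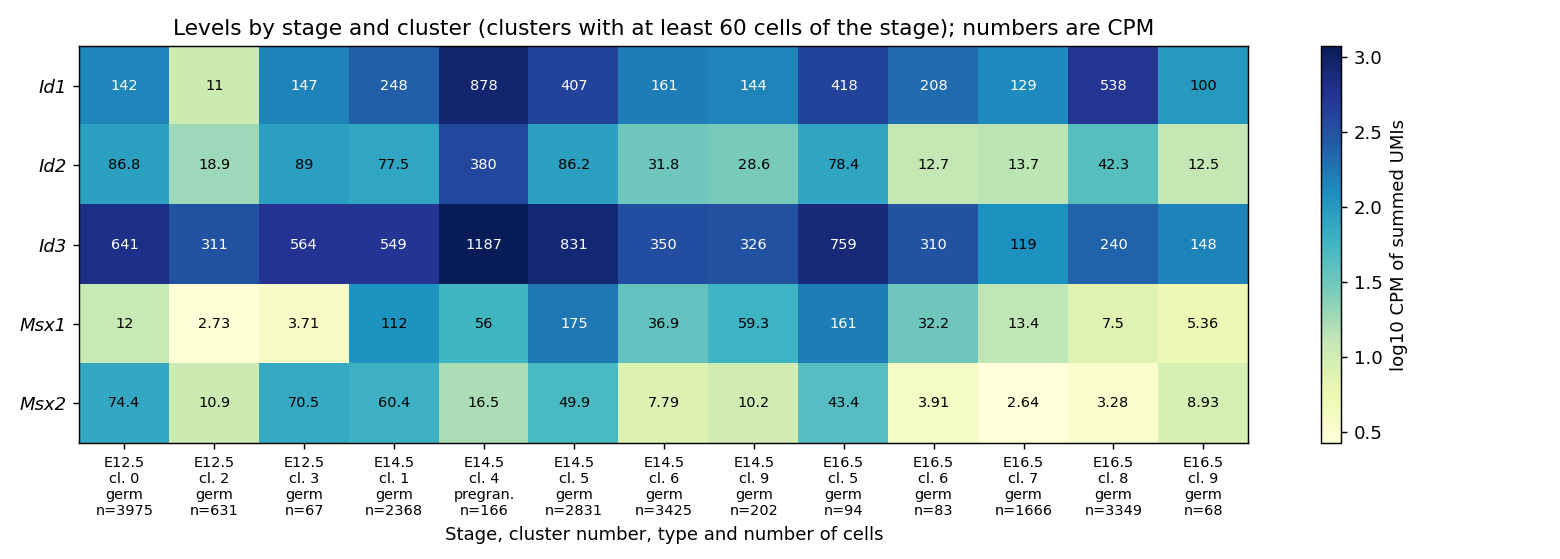
Level of each gene (numbers, CPM of summed UMIs; colour, log10 of the same) in each cluster that holds at least 60 cells of a stage, with type and cell number under each column. Cluster 2 at E12.5, where most cells carry Y-linked UMIs, has 10.99 CPM of Id1, and cluster 5 has 174.8 CPM of Msx1 at E14.5 and 160.7 CPM at E16.5.

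The levels of the Id genes were correlated across cells. Over the 8903 E14.5 cells, the natural log values of Id1 and Id3 had a Pearson r of 0.69, Id3 and Msx1 0.47, Id1 and Msx1 0.45, and Msx1 and Msx2 0.32. Over the 5312 E16.5 cells Id1 and Id3 again had 0.66, whereas Id1 and Msx1 had 0.09. At E12.5 Id1 and Id3 had 0.43, and 0.32 when the cells with Y-linked UMIs were left out. Cells of a library share its depth and batch, and at E14.5 the members' own r with total UMIs per cell was 0.16 to 0.24. In thinned E14.5 cells, 701 held both Msx1 and Msx2, where the product of their shares gives 433.3, and 1593 of 8892 cells held none of the 5. At E16.5, 26 thinned cells held both MSX genes, where the product gives 5.69. At E12.5, 84 did, where the product gives 69.8, and without the cells with Y-linked UMIs 82 did, where it gives 74.2. Id1 and Id3 shared 4427 thinned cells at E14.5, where the product gives 3621. At E12.5 they shared 1796, close to the product of 1724, and 1745 against 1708 without the cells with Y-linked UMIs.

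The genes most like each member across cells were looked up in the stage where the member was highest, among genes of at least 10 CPM there (6654 to 7239 genes). For Msx1 at E14.5 they were Id3 (r = 0.47), Id1 (0.45), Rec8 (0.43), Marcksl1 (0.41) and the ribosomal gene Rps2 (0.39). The r of these genes with total UMIs per cell was 0.20, 0.16, 0.22, 0.40 and 0.41 in the same order. The part of depth in their likeness to Msx1 was not tested. For Id1 at E16.5 they were Id3 (0.66), the unnamed locus Gm27164 (0.54), the actin-binding gene Ablim1 (0.46), the actin gene Actg1 (0.44) and Id2 (0.44). For Msx2 at E12.5 the imprinted gene Phlda2 came first (0.39), followed by Id1 (0.27), Rhox9 (0.25), Id3 (0.25) and Mdk (0.23). Without the cells with Y-linked UMIs Phlda2 was still first but at 0.20. For Id2 and Id3 at E12.5, Id1 came first (0.40 and 0.43), and Phlda2 ranked 3 for both (0.31 and 0.35). Without the cells with Y-linked UMIs the replication-dependent histone gene Hist1h2ap led for Id3 (0.38), and Id1 still led for Id2 (0.31), while Phlda2 was no longer among the 5 most alike for either.

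The rest of the BMP pathway was read from fixed lists, by counts past 2-fold and medians. For E14.5 compared with E12.5 the counts stand beside 31.2% of all genes upward and 16.3% downward, and for E16.5 compared with E14.5 beside 16.3% upward and 17.4% downward. The list counts of E14.5 over E12.5 given below were the same without the cells with Y-linked UMIs. Among 5 measured ligand genes, 2 passed 2-fold upward and 2 downward at E14.5 compared with E12.5. The 2 that were higher each stood at 0.14 CPM or less at E12.5. Gdf3 stood at 62.5, 8.40 and 0.75 CPM in time order and Bmp7 at 13.2, 8.50 and 1.55 CPM. Bmp2 and Bmp4, the best-known BMP ligand genes, did not pass 3.29 CPM at any stage in these cells, and Bmp2 stood at 55.2 CPM in all pregranulosa-like cells.

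Of 6 receptor genes, 2 passed 2-fold upward and 1 downward at E14.5 compared with E12.5, and 0 upward and 1 downward at E16.5 compared with E14.5. Of the type I receptor genes, Bmpr1a stood at 20.2, 38.2 and 23.9 CPM, highest at E14.5 like Msx1, and Acvr1 at 4.11, 3.24 and 1.81 CPM. Of the type II receptor genes, Bmpr2 at 2.36, 13.7 and 18.0 CPM and Acvr2a at 2.50, 5.50 and 8.45 CPM were higher at each later stage, and Acvr2b at 41.3, 17.5 and 15.7 CPM was lower. Of the 4 SMAD genes, 2 passed 2-fold upward at E14.5 compared with E12.5 and 0 downward, and 1 of those 2 stood at only 0.16 CPM at E12.5. Smad5 stood at 13.3, 34.6 and 40.3 CPM, and the common partner gene Smad4 at 18.7, 11.6 and 26.5 CPM.

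Smad6 and Smad7 encode the inhibitory SMADs and are themselves BMP-induced. Smad6 stood at 18.1, 21.7 and 4.15 CPM in time order and Smad7 at 24.5, 10.1 and 1.957 CPM. These were the 2 of 10 intracellular inhibitor genes that passed 2-fold downward at E16.5 compared with E14.5. The antiproliferative gene Tob1 stood at 8.52, 19.8 and 61.5 CPM, and it was 1 of 2 that passed 2-fold upward. The corepressor gene Ski stood at 16.5, 35.3 and 30.1 CPM. Of 9 extracellular antagonist genes, 4 passed 2-fold upward and 1 downward at E14.5 compared with E12.5. The 4 that were higher each stood at 0.30 CPM or less at E12.5, on 6 to 37 UMIs. Chrd, which encodes the BMP-binding chordin, stood at 0.24, 6.03 and 3.29 CPM and Fstl1 at 20.7, 5.67 and 2.35 CPM.

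Among 10 other BMP-responsive genes, 8 passed 2-fold downward and 0 upward at E16.5 compared with E14.5, with a median log2 ratio of -2.02, against 0.06 over all genes. The members' own median was -1.38. Zglp1, a transcriptional regulator gene of the oogenic programme in mouse, stood at 68.4, 85.1 and 21.1 CPM. Tfap2c, a germ cell specifier, stood at 98.2, 13.4 and 1.70 CPM. At E14.5 compared with E12.5 the same list was mixed, with 3 past 2-fold upward and 3 downward (median 0.16, and -0.02 without the cells with Y-linked UMIs).

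The partners of the ID proteins were listed with the helix-loop-helix genes of germ cells, of which 8 were measured. At E14.5 compared with E12.5, 5 passed 2-fold upward and 1 downward (median log2 ratio 2.60), and at E16.5 compared with E14.5, 1 did so upward and 2 downward (median -0.07). The E protein genes Tcf3 and Tcf12 stood at 144.7, 122.3 and 60.03 CPM and at 26.8, 75.5 and 83.8 CPM, and Tcf4, the gene that passed 2-fold downward at E14.5, at 22.5, 9.81 and 18.5 CPM. Figla, an oocyte transcription factor gene, stood at 1.24, 119.9 and 217.0 CPM, and Stra8 at 3.28, 1457 and 274.4 CPM.

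**Figure D5:**
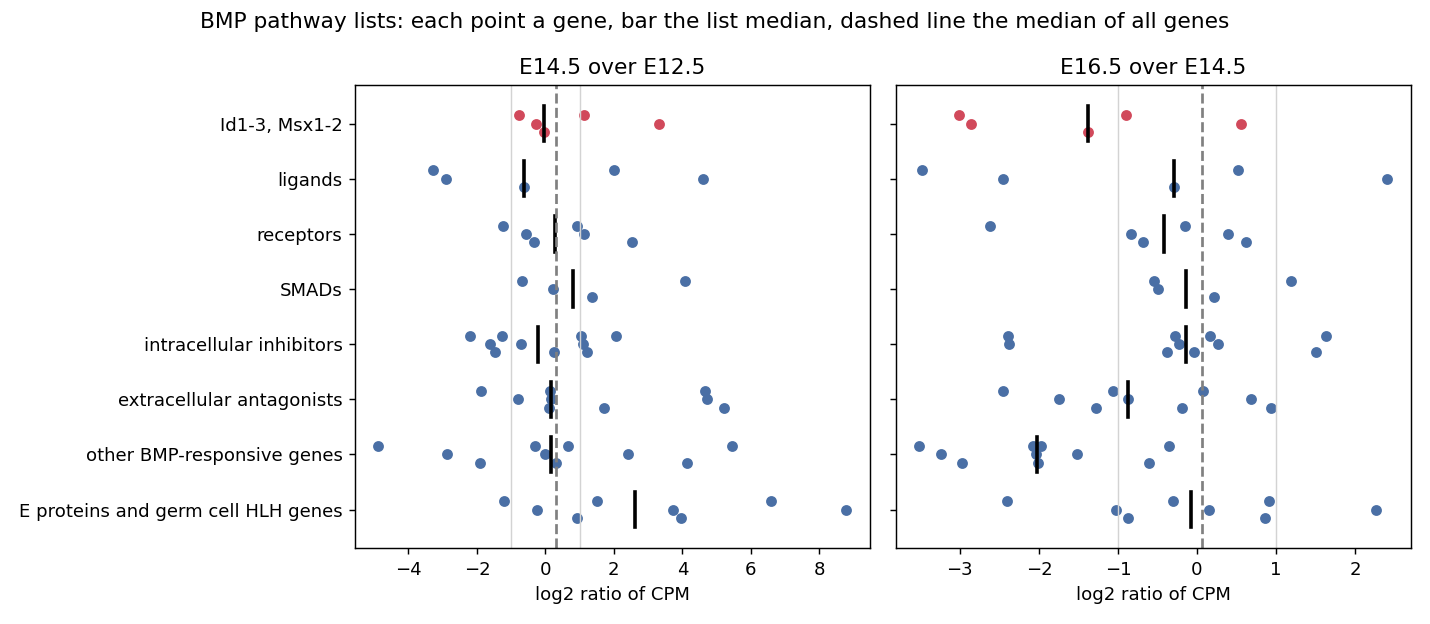
log2 ratio of CPM for the 5 members (red) and for each measured gene of 7 fixed lists (blue), for E14.5 over E12.5 (left) and E16.5 over E14.5 (right); black bars are list medians, the dashed line is the median of all genes (0.30 and 0.06), and light lines mark 2-fold. In the right panel the other BMP-responsive genes have a median of -2.02 and the members one of -1.38.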

How the data were processed

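The authors deposited 1 table for 14133 genes in 19144 cells, as the natural log of 1 plus UMIs scaled to 10000 a cell. Undoing the natural log gave whole UMI counts for 100.0% of the 68606039 non-zero values within 0.01. Build mm10, FastQC and Cell Ranger 2.0.0 are named per the submitters' processing notes, without settings. The design foresaw mean values where counts could not be recovered, and the recovered sums were used.

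Scrublet in scanpy 1.11.5 marked 38 cells (0.20%), far under the expected 6%, so few doublets can have been removed here and others may remain. Why so few were marked was not tested. The deposited cells had 2021 to 5489 genes at E12.5, 1998 to 5466 at E14.5 and 1998 to 5471 at E16.5, nearly the same bounds in each library. Clustering used 2000 variable genes without the 5 members, 30 principal components, 15 neighbours and Leiden resolution 0.5. It gave 9 germ-cell-like clusters and 1 pregranulosa-like cluster, named from fixed markers found in at least 10% of cells. UMIs were summed per stage and given as CPM, and genes needed at least 10 UMIs over the 3 sums. There was no test, because each stage had 1 library. The named genes were the members, the 2 list genes of highest CPM and the 1 of largest ratio per list, the 5 most alike by r, and stage genes; Bmp2, Bmp4, Smad6, Acvr1, Acvr2a, Tdrd1, the E proteins and the clusters' and Y-linked cells' genes were chosen after their values were seen. The members and lists were chosen with earlier results of these data known. Code was tested on simulated counts.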

Additional observations from a re-analysis of the deposited data

How the results depend on the processing

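No paired analysis was possible because each stage has 1 library. The counts of members past 2-fold were recomputed over all cells, as means over cells, in thinned cells, under median-of-ratios and upper-quartile scaling, without cells with a Y-linked UMI and without the top 5% of cells by UMIs. For E14.5 over E12.5, 1 member in place of 2 was at least 2-fold higher with median-of-ratios scaling and without cells with a Y-linked UMI, and 1 in place of 0 was at least 2-fold lower with median-of-ratios scaling. For E16.5 over E14.5, 4 members in place of 3 were at least 2-fold lower with upper-quartile scaling. As a difference of mean natural logs, which compresses low values by construction, 0 were higher for E14.5 over E12.5 and 0 for E16.5 over E12.5, and 1 was lower for each of E16.5 over E14.5 and E16.5 over E12.5. Signs of the log2 ratios were kept under every setting run, except Msx1 for E16.5 over E12.5 (-0.01 to 0.45). Id1 for E14.5 over E12.5 ranged from 0.46 to 1.16, and Msx1 from 0.62 to 3.32. With 3 score bins in place of 5, Msx1 at E14.5 was 3.56-fold higher in the first bin than in the last, in place of 6.86-fold. Msx2 at E16.5 rests on 330 UMIs in all.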
